A study of Mus musculus with 8 samples.

Results

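The genes described here are 9 tight junction genes of the mouse esophageal epithelium: 7 claudins (Cldn1, Cldn3, Cldn4, Cldn7, Cldn8, Cldn12 and Cldn23), occludin (Ocln) and the scaffold ZO-1 (Tjp1). They were taken as a list of gene symbols with no threshold on a measured value, though with earlier results of these data known. All 9 were found among the 55276 gene symbols of the deposited count table, and 8 of them were among the 17344 genes with enough reads to be tested. The exception was Cldn3, which had 1 to 13 counts in a library.

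The study sorted epithelial cells of C57BL6 mice, 14 to 15 weeks old, by their staining with Cyto-ID, a dye that labels autophagic vesicles, and sequenced each sorted fraction in bulk. The fractions compared were Cyto-ID Low and Cyto-ID High, both gated as live (DAPI negative) and positive for integrin beta-1, the product of Itgb1. The 4 animals (Female1, Female2, Male1 and Male2) each gave 1 Low and 1 High library, and the labels name no genetic change or drug. The labels call the cells squamous cells of the esophageal epithelium, and the protocol calls both fractions basal.

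Tight junctions seal the space between neighbouring epithelial cells. Claudins and occludin span the membrane, claudins pair with claudins of the next cell and set which ions and solutes can pass, and the ZO proteins beneath the membrane tie them to actin. In stratified squamous epithelium the cells divide in the basal layer, and tight junctions are known mainly from the differentiated layers above it. Cldn4 and Cldn3 are adjacent genes, as are Cldn17 and Cldn8, and such pairs are used below to compare genes that share a locus.

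The promoters of 3 of the genes are shown because the results turn on them: Cldn4 was the most abundant claudin and rose, its neighbour Cldn3 was near the limit of detection, and Tjp1 rose with the smallest standard error of those called among the 9. Each line gives the 250 bases before the RefSeq transcription start (GRCm38.p6), 5′ to 3′ on the strand of the gene, with matches to TGANTCA or GGGCGG, read on both strands, in capitals. The windows are chr5:134946935-134947184 (minus strand) for Cldn4, chr5:134985964-134986213 (plus strand) for Cldn3 and chr7:65371245-65371494 (minus strand) for Tjp1; the Tjp1 start lies within the longer gene that GENCODE annotates.
Cldn4: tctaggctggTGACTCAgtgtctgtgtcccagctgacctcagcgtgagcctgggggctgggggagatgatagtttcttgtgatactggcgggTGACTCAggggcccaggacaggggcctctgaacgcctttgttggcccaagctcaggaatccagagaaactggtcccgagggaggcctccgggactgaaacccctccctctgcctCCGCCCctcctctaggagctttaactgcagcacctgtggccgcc
Cldn3: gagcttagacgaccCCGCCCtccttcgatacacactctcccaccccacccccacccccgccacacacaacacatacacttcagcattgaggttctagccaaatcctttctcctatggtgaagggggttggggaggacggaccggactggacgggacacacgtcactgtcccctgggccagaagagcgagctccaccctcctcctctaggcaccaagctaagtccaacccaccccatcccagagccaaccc
Tjp1: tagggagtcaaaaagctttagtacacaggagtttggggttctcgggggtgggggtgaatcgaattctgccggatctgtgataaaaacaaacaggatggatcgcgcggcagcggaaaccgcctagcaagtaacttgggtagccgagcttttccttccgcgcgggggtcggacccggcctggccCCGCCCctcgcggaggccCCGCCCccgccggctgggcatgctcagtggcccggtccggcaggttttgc
The Cldn4 window held 2 matches to TGANTCA, the letters of the AP-1 motif, which began 240 and 158 bases before the start, and 1 to GGGCGG, the core of the Sp1 motif. The Cldn3 window held 1 match to GGGCGG and none to TGANTCA, and the Tjp1 window held 2 and none. Among the 11 windows that RefSeq gave for 7 of the 9 genes, only that of Cldn4 held TGANTCA, against 6.73% of 32536 promoter windows of the same length. GGGCGG stood in 9 of the 11 and in 33.0% of all windows; windows of 1 gene overlap or share a locus, so they are not independent. The other motifs searched, on both strands, were AACCGGTT (in 0.117% of all windows), AACNGGTT, which includes it (1.79%), and TATAAA (12.3%), each in 0 of the 11. CCCCACCC stood in 3 of the 11, those of Cldn3 and Tjp1 and 1 of Cldn7 (9.12% of all windows), CACCC, which lies within it, in 6 (52.1%), and CCAAT in 3, of Cldn12 and Ocln (33.8%). The motifs were chosen after the values were seen, and a match describes the letters of the window only. Cldn8 and Cldn23 had no entry among the promoter windows used.

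Libraries held 26285150 to 29301054 counts. Values are CPM, counts scaled to a common library size, after TMM scaling, which aligns the libraries on most of their genes, and a gene was called when edgeR's quasi-likelihood test gave a Benjamini-Hochberg adjusted p under 0.05 over all tested genes. Values by library are listed throughout in the order Female1, Female2, Male1, Male2. TMM factors were 1.16 to 1.304 in Low and 0.679 to 0.944 in High libraries, so the scaling itself differed between the fractions. Of all genes tested, 23.4% were higher and 25.3% lower in High, with a median log2 difference of -0.09. Scaled by total counts only, 61.7% were called, the median moved to -0.64 and the split to 12.6% higher and 49.1% lower. The fractions differed in their keratinocyte markers: all 10 of 10 basal markers fell (summed 22032 to 26255 CPM in Low, 2882 to 4577 CPM in High) and all 10 of 10 suprabasal markers rose (8818 to 26310 CPM in Low, 147369 to 248179 CPM in High). Itgb1, a basal marker whose product defined the gate, had a mean of 370 CPM in Low and 68.2 CPM in High. These marker differences lie between the same 2 fractions as every comparison below, and their part in the tight junction results was not tested.

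Of the 8 tested tight junction genes, 4 rose in Cyto-ID High (Cldn4, Cldn23, Ocln and Tjp1), 1 fell (Cldn7) and 3 did not pass the test (Cldn1, Cldn8 and Cldn12). That is 5 of 8, or 62.5%, where 48.7% of all tested genes were called, so the share is near the background and says little about the list; the sizes and the differences among its members are described instead. Their median log2 difference was 0.84, against -0.09 over all genes. It was 1.33 without Low Female1, 0.56 without Low Female2, and 0.29 scaled by total counts only, where that of all genes was -0.64. The Low and High libraries did not overlap for 6 of the 8, where 48.6% of all genes were apart in this way. Scaled by total counts only, 5 of the 8 were also called, where 61.7% of all genes were, but Cldn12 was then among them, as lower, and Ocln was not.

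**Figure D1:**
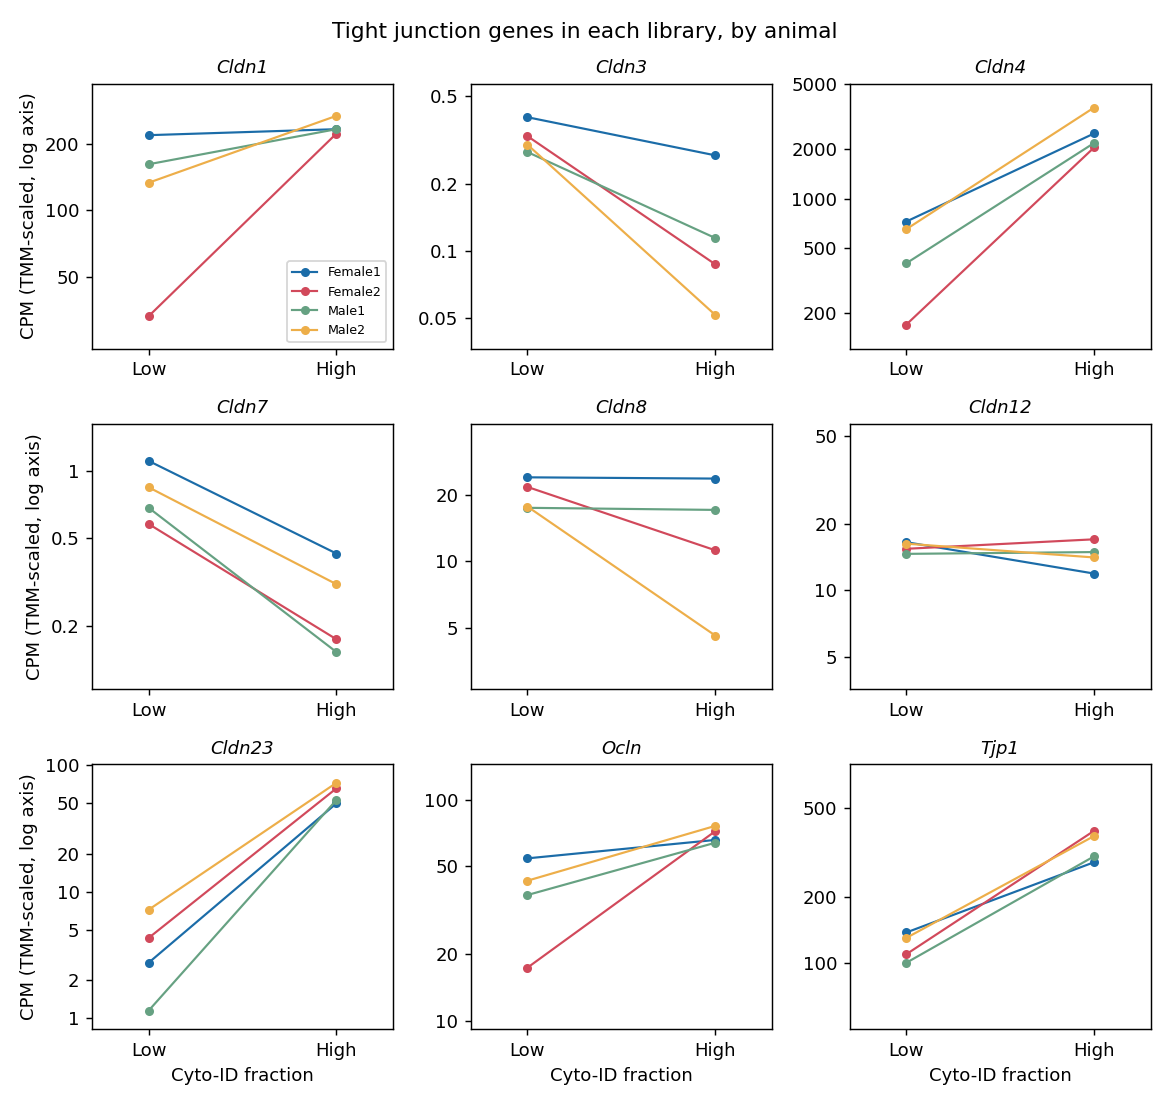
Each panel shows 1 gene in the 8 libraries, as TMM-scaled CPM on a log axis, with a line joining the Low and High library of each animal. All 4 lines climb in Cldn1, Cldn4, Cldn23, Ocln and Tjp1, whereas Cldn8 and Cldn12 overlap between fractions and Low Female2 lies far below the other Low libraries in Cldn1, Cldn4 and Ocln.

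Among the claudins, Cldn23 showed the largest rise. It encodes a claudin known from the differentiated surface cells of the colon and lies at chr8:35824712-35826559 (GRCm38, minus strand). In Low it measured 2.75, 4.32, 1.15 and 7.21 CPM, and in High 50.0, 65.7, 53.15 and 72.7 CPM. The lowest High library was thus far above the highest Low library, and within Low the libraries themselves were widely spread. The fitted log2 difference was 3.97 (SE 0.46), a 15.6-fold rise (3.86 ± 2.58 against 60.4 ± 10.6 CPM, SD, n = 4 each; edgeR adjusted p = 9.28e-05). Without Low Male2, the highest Low library, it was 4.601 on the log2 scale. In the fit of all libraries, only 97 of the 17344 tested genes had a larger log2 difference, and Cldn23 is among the 972 genes (5.6%) that rose at least 4-fold.

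Cldn4, a claudin known to tighten the barrier to sodium, was the most abundant of the family (chr5:134945119-134946934, minus strand). Low libraries measured 725, 170, 403 and 651 CPM, and High libraries 2507, 2058, 2193 and 3611 CPM. Every High library was above every Low one, and Low Female2 stood lowest. The rise was 5.30-fold, from 487 ± 252 to 2592 ± 705 CPM (SD, n = 4 each), with a log2 difference of 2.41 (SE 0.41, edgeR adjusted p = 0.000982). Scaled by total counts only it was 1.84, still called.

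Cldn3 lies 39.28 kb from Cldn4 on chromosome 5 (chr5:134986214-134987472, plus strand) and went the other way in its few reads. It had 13, 12, 9 and 10 counts in Low and 7, 2, 3 and 1 in High, or 0.328 ± 0.053 and 0.131 ± 0.096 CPM (SD, n = 4 each). The ranges did not touch, but the gene was under the count filter and so was not among the tested genes. Where an alternative admitted it, it was called lower without High Female1 (-1.82, SE 0.57, edgeR adjusted p = 0.0281) and not called with no filter (-1.34, adjusted p = 0.119), without Low Male1 (-1.26, 0.144) or in females only (-0.92, 0.4999). Its exons also overlap those of Wbscr25 on the other strand, and without a stated strand setting reads of both genes cannot be told apart. Within a library and per kb of exon, Cldn4 exceeded Cldn3 by 357 to 1494.6 times in Low and by 6434 to 48668 times in High, a log2 change of 4.16 ± 1.42 (SD, n = 4 animals) that no library scaling affects. The High end of that ratio rests on 1 to 7 Cldn3 counts.

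Cldn7, found along the lateral membrane of many epithelia (chr11:69964779-69967885, plus strand), was the single member that fell. Its counts were low: 36, 21, 22 and 28 in Low and 11, 4, 4 and 6 in High, which are 1.11, 0.577, 0.683 and 0.845 CPM against 0.424, 0.174, 0.153 and 0.309 CPM. All 4 High libraries were below all 4 Low libraries, by a narrow margin between High Female1 and Low Female2. The fold was 3.03 times lower in High (log2 difference -1.60, SE 0.44, edgeR adjusted p = 0.0139). Without Low Female1, the highest library, the difference was -1.43 and not called (adjusted p = 0.0539).

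Cldn1, whose product is needed for the water barrier of the epidermis (chr16:26356642-26371841, minus strand), did not pass. It measured 219, 33.1, 162 and 133.5 CPM in Low and 234, 223, 234 and 268 CPM in High. The High libraries were close together and all above Low, but Female1 differed little between its fractions (0.09 on the log2 scale) and Female2 by 2.75. The fit gave 0.81 (SE 0.44, edgeR adjusted p = 0.159). Scaled by total counts only it was 0.26 (adjusted p = 0.630) and the fractions overlapped, since Female1 then had more in Low (7104 of 26285150 counts) than in High (6053 of 27486049). It was called when either of these Low libraries was left out, with 1.46 without Low Female1 (adjusted p = 0.0218) and 0.49 without Low Female2 (adjusted p = 0.0450).

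Cldn8, a claudin known from the distal nephron and colon as a barrier to cations (chr16:88560828-88563183, minus strand), and Cldn12, a broadly expressed claudin (chr5:5489537-5514958, minus strand), overlapped between fractions. Cldn8 was 24.0, 21.7, 17.5 and 17.7 CPM in Low and 23.7, 11.2, 17.1 and 4.63 CPM in High, with a fitted difference of -0.53 (SE 0.36, edgeR adjusted p = 0.255). High Female1 lay within the Low range, High Male1 just under it, and High Female2 and Male2 well below. The difference was -0.25 without High Male2, -0.92 without High Male1, -0.81 without High Female1 and -1.02 scaled by total counts only, none of them called. Cldn12 was the flattest of the 9, at 15.7 ± 0.86 CPM in Low and 14.5 ± 2.1 CPM in High (SD, n = 4 each; log2 difference -0.12, SE 0.15, edgeR adjusted p = 0.566), and scaled by total counts only it was called lower (-0.68, adjusted p = 0.00324). The 4 High libraries had the same order in Cldn8 and Cldn3 as in the summed markers of each of 6 other cell types. These sums in High were 607, 196, 425 and 39.5 CPM for fibroblasts, 65.8, 22.3, 43.05 and 5.45 CPM for muscle, 55.7, 21.9, 43.3 and 5.71 CPM for leukocytes, 40.5, 13.3, 26.04 and 3.34 CPM for endothelium, 18.9, 14.3, 14.9 and 5.92 CPM for simple epithelium and 10.998, 3.53, 8.05 and 0.669 CPM for Schwann cells. In Low they were 372 to 572, 43.6 to 67.7, 30.0 to 46.1, 18.2 to 33.3, 12.9 to 21.2 and 4.91 to 7.09 CPM. The Low libraries stood, for Cldn8 and Cldn3, in the order of the leukocyte sum and not of the other sums. The TMM factors of the High libraries (0.944, 0.792, 0.896 and 0.679) had the same order as these genes in High. The part of such cell types or of scaling in these 2 claudins was not tested, and genes sharing this order were not counted. In bulk libraries, fewer cells of a type and less RNA per cell cannot be told apart.

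Occludin, the first tight junction membrane protein known and a partner of claudins in the strands (Ocln, chr13:100496507-100552718, minus strand), rose modestly. Low libraries measured 54.3, 17.4, 37.1 and 43.05 CPM and High libraries 65.75, 72.0, 63.9 and 76.1 CPM. The fractions did not overlap, the High libraries were close together, and Low Female2 was again lowest. The log2 difference was 0.87 (SE 0.29), a 1.83-fold rise (38.0 ± 15.4 to 69.4 ± 5.6 CPM, SD, n = 4 each; edgeR adjusted p = 0.0301). The call was lost without High Female1 (0.89, adjusted p = 0.0526), High Female2 (0.83, 0.0777), Low Male1 (0.85, 0.0627) or High Male2 (0.84, 0.0580), without both Male2 libraries (0.94, 0.0615), in females only (1.03, 0.119), and scaled by total counts only (0.31, 0.357), where the fractions overlapped, alone or with the replicate block (0.40, 0.167).

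Tjp1 encodes ZO-1, the PDZ scaffold under the junction (chr7:65296165-65527781, minus strand). It was 138, 110, 101 and 130 CPM in Low and 286, 397, 304 and 376 CPM in High. Each animal rose, and the lowest High library was well above the highest Low library. The log2 difference was 1.51 (SE 0.18), a 2.85-fold rise from 120 ± 17 to 341 ± 54 CPM (SD, n = 4 each; edgeR adjusted p = 0.000103). This was the smallest standard error among the called members.

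Low Female2 stood apart for part of the list. It lay at least 2-fold below each other Low library for 3 of the 8 tested members (Cldn1, Cldn4 and Ocln), against 1.37% of all tested genes, and for 1 of 43 further tight junction genes (Marveld2). It did not do so for Tjp1, Cldn7, Cldn8, Cldn12 or Cldn23. The same animal was the one with stomach transcripts: 11 gastric epithelium markers, of which none passed the count filter, summed to 19.1 CPM in Low Female2 and 116 CPM in High Female2, against 0.392 to 0.772 CPM in the other Low and 0.801 to 1.44 CPM in the other High libraries. Cldn18, a claudin of stomach and lung, had 13 and 36 counts in these 2 libraries and at most 1 in the other 6. The part of such cells in the results was not tested; without both Female2 libraries Cldn4, Cldn7, Cldn23, Ocln and Tjp1 were still called, and so was Cldn1 (0.56, edgeR adjusted p = 0.0306).

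Males and females did not differ detectably in the response. The difference between the sexes in the High against Low log2 change lay between -0.30 (Cldn8) and 0.11 (Cldn4), with standard errors of 0.33 to 0.96, so that sizeable differences could have been missed. None was called (edgeR adjusted p = 1 for each), as for all 17344 genes, of which 19 had an unadjusted p under 0.05. With 2 animals of each sex, each sex alone gave the same direction for all 8 tested members.

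**Figure D2:**
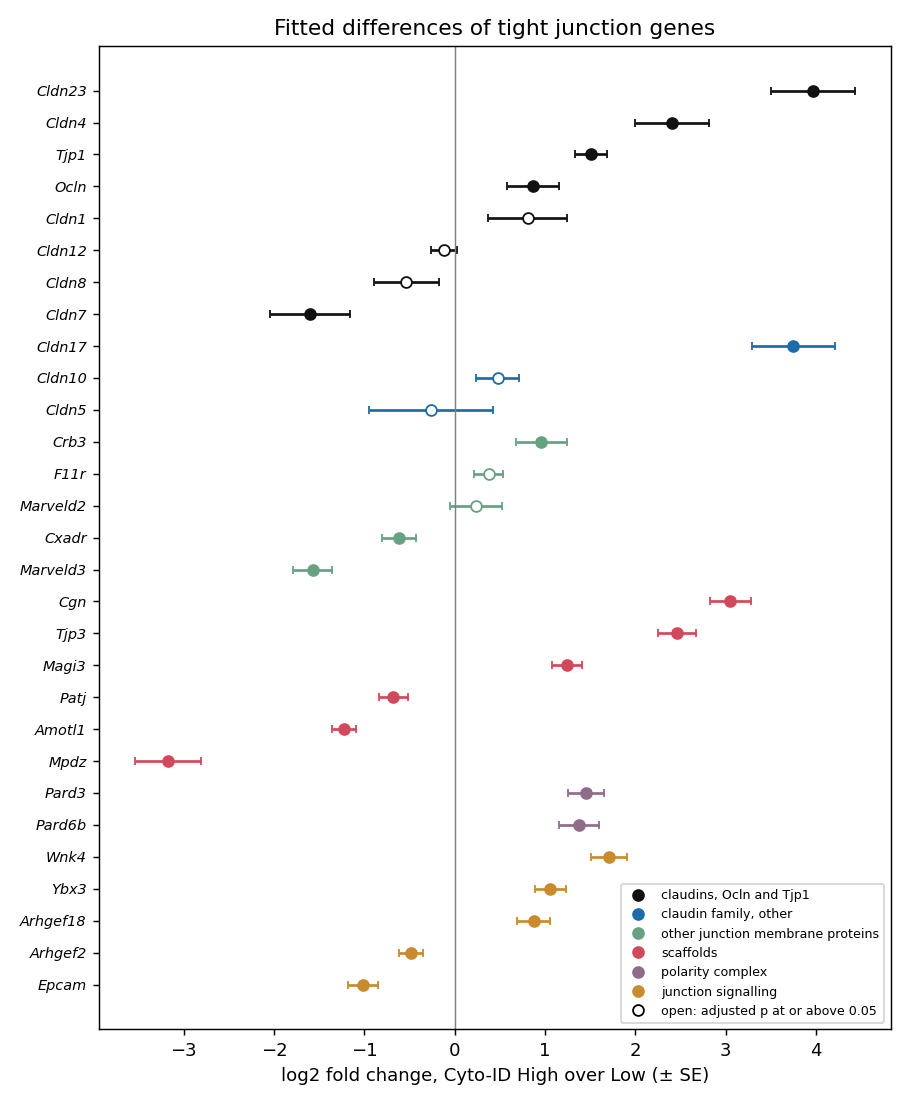
Points are fitted log2 differences of High over Low with their standard errors, coloured by gene group, and open points did not pass an adjusted p of 0.05. Cldn23, Cldn17, Cgn, Tjp3 and Cldn4 lie farthest to the right and Mpdz farthest to the left of the genes drawn, which leave out Cldn34c1 (-4.02).

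Levels of different genes were compared per kb of exon, as TMM-scaled CPM per kb (mean ± SD, n = 4 libraries). In Low, Cldn4 led at 268 ± 139, followed by Cldn1 (28.3 ± 16.1), Tjp1 (15.3 ± 2.2), Ocln (8.99 ± 3.66), Cldn8 (8.57 ± 1.35), Cldn12 (3.72 ± 0.20), Cldn23 (2.087 ± 1.399), Cldn7 (0.413 ± 0.119) and Cldn3 (0.261 ± 0.042). In High the order began in the same way, with Cldn4 at 1427 ± 388, Cldn1 at 49.5 ± 4.1 and Tjp1 at 43.6 ± 6.9. Cldn23 came next at 32.7 ± 5.8, ahead of Ocln (16.4 ± 1.3), Cldn8 (6.01 ± 3.45), Cldn12 (3.43 ± 0.50), Cldn7 (0.136 ± 0.065) and Cldn3 (0.104 ± 0.077). Neighbours in this order whose libraries overlapped were Cldn1 with Tjp1, Ocln with Cldn8, Cldn12 with Cldn23 and Cldn7 with Cldn3 in Low, and Cldn1 with Tjp1, Tjp1 with Cldn23, Cldn8 with Cldn12 and Cldn7 with Cldn3 in High. The move of Cldn23 past Ocln, Cldn8 and Cldn12 was the only change of order.

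The 25 claudins with any read, of 35 in the table, summed to 323 ± 154 CPM per kb in Low and 1611 ± 388 in High (SD, n = 4 each). Shares of that sum do not depend on library scaling. Cldn4 alone made up 81.0 ± 6.2% in Low (72.2 to 85.8%) and 88.2 ± 3.0% in High (84.1 to 91.3%), so its ranges overlapped, though the share was higher in High in each animal (84.8 and 89.3%, 72.2 and 84.1%, 81.2 and 88.0%, and 85.8 and 91.3% in Low and High). Cldn1, the next in Low, went from 8.44 ± 3.12% (5.28 to 12.2%) to 3.15 ± 0.44% (2.55 to 3.52%), with no overlap, although its own CPM was higher in every High library than in any Low one. Cldn17 was 2.58 ± 2.42% in Low and 5.59 ± 2.21% in High, above Cldn1 there, but not divided by length Cldn1 was above it in High (8.09 and 3.48%). The share of Cldn23 went from 0.821 ± 0.728% to 2.07 ± 0.41%. Its ranges overlapped (0.228 to 1.81% in Low, 1.75 to 2.64% in High), as did those of Cldn17 (0.670 to 6.02% and 3.86 to 8.81%). Both shares were higher in High in each animal. Cldn8 went from 3.45 ± 2.47% to 0.406 ± 0.243%. The ratio of Cldn4 to Cldn1 per kb was 6.63 to 13.7 in Low and 24.6 to 35.9 in High, a log2 change of 1.48 ± 0.46 (SD, n = 4 animals).

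**Figure D3:**
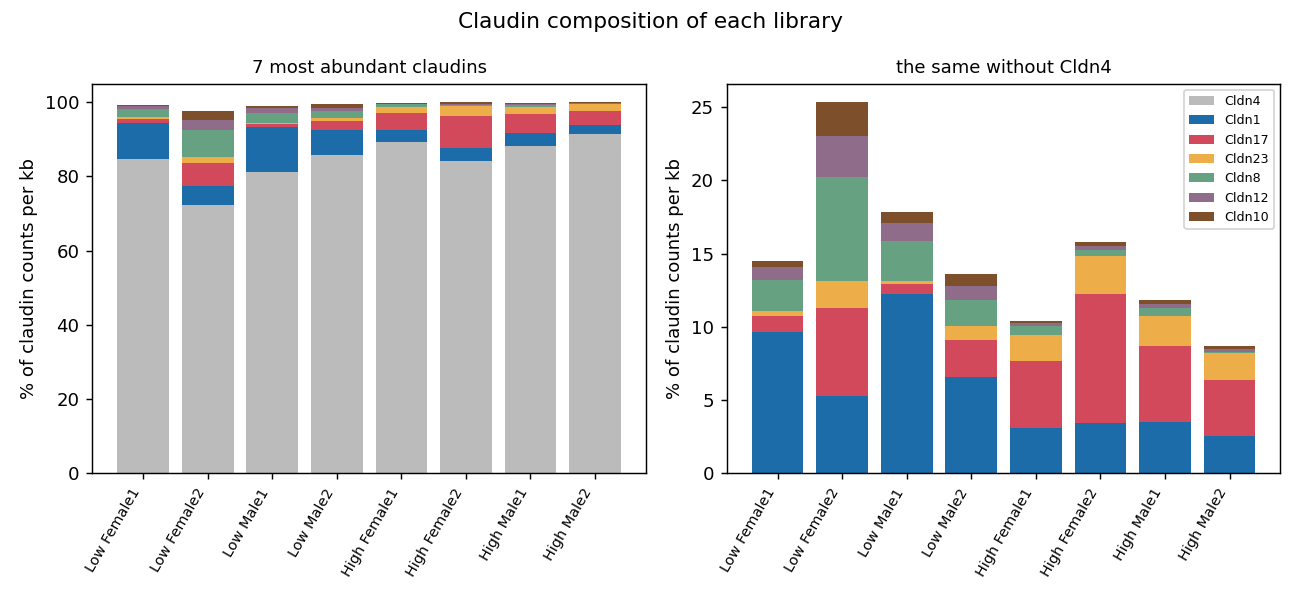
Stacked bars give each claudin as a percentage of the claudin counts per kb of a library, with Cldn4 at the left and the same bars without Cldn4 at the right. Cldn4 fills 72.2 to 85.8% of the Low bars and 84.1 to 91.3% of the High bars, and in the remainder Cldn17 and Cldn23 take the larger part in High.

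The second pair of adjacent claudins also diverged. Cldn17, which forms anion channels and lies 53.85 kb from Cldn8 on chromosome 16 (chr16:88505807-88506978, minus strand), measured 6.21, 9.13, 2.14 and 12.3 CPM in Low and 82.4, 139, 82.7 and 98.6 CPM in High. It rose 13.4-fold (log2 difference 3.75, SE 0.46, edgeR adjusted p = 0.000128), the largest rise of a junction gene after Cldn23, and the 4 Low libraries stood in the same order for both. The summed suprabasal markers in Low (13064, 20006, 8818 and 26310 CPM) had this order too, and their part was not tested. In High the orders of Cldn17, Cldn23 and this sum differed. Without Low Male2, the highest Low library, the log2 difference was 4.38. Per kb, its ratio to Cldn8 was 0.247 to 1.3996 in Low and 7.001 to 42.8 in High, a log2 change of 4.72 ± 0.67 (SD, n = 4 animals). Occludin and its relative Marveld2 (tricellulin, which seals the corners where 3 cells meet) are 43.239 kb apart on chromosome 13, and their ratio moved less, from 1.77 to 2.25 in Low to 2.60 to 3.58 in High. Marveld2 itself did not pass (0.23, SE 0.29, edgeR adjusted p = 0.554) and had the opposite sign scaled by total counts only (-0.34). It was called without Low Female1 (0.59, adjusted p = 0.0475). Cldn16, 91.294 kb from Cldn1, had no read in any library.

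The 69 other tight junction genes of the lists were covered in the same fit. Of the 43 that were tested, 12 rose and 12 fell (27.9% each, against 23.4% and 25.3% of all genes), with a median log2 difference of -0.26. Scaled by total counts only, 9 were higher and 22 lower, where 12.6% and 49.1% of all genes were. Both splits are near the background and are not read as a result about the pathway. Of 28 other claudins, 5 were tested: Cldn17 rose, and Cldn2 (-2.20, SE 0.42) and Cldn34c1 (-4.02, SE 0.85), singled out after their values were seen, fell from at most 52 and 27 counts in a library (edgeR adjusted p = 0.00192 and 0.00321). These are 20% higher and 40% lower, against 23.4% and 25.3% of all genes. Cldn5, the claudin of endothelium, varied in High from 0.0514 CPM in Male2 to 3.20 CPM in Female1 and was not called (-0.26, SE 0.68, edgeR adjusted p = 0.793), and without High Female2 or High Male2 its sign was positive (0.01 and 0.14). Its High libraries had the order of the same 6 marker sums, endothelium among them, whose part was not tested. Its Low libraries had the order of the Schwann cell sum and not of the endothelial sum or the others. Cldn10 was not called (0.48, SE 0.24, edgeR adjusted p = 0.132), was called with the animal as a replicate block (0.50, adjusted p = 0.0149), and had a negative sign scaled by total counts only (-0.11); it was also named after its values were seen.

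Among the other junction membrane proteins, 11 of 12 were tested, with a median of -0.44. Of these 1 rose and 3 fell (9.1% and 27.3%, against 23.4% and 25.3% of all genes). Crb3, the apical polarity protein that binds Patj and Pals1, went from 24.4 ± 9.3 to 47.5 ± 8.9 CPM (SD, n = 4 each; log2 difference 0.96, SE 0.28, edgeR adjusted p = 0.0171), and it was not called scaled by total counts only (0.41, 0.233), in females only (0.98, 0.122) or without both Male2 libraries (0.89, 0.0618). Marveld3, the third protein of the occludin family, fell from 7.75 to 10.3 CPM in Low to 2.31 to 4.63 CPM in High (-1.57, SE 0.22, adjusted p = 0.000271). Cxadr, the coxsackievirus and adenovirus receptor, was 116, 64.8, 132 and 123 CPM in Low and 62.6 to 73.8 CPM in High. It fell (-0.62, SE 0.19, edgeR adjusted p = 0.0228), with Low Female2 inside the High range, and was not called without Low Female1 (-0.50, adjusted p = 0.0648), High Male1 (-0.57, 0.0678) or High Male2 (-0.58, 0.0551), without both Male2 libraries (-0.52, 0.118), or in females only (-0.35, 0.505). Ildr1, an angulin of tricellular contacts, also fell (-1.57, SE 0.35) and was under the level set for named genes. F11r, the junctional adhesion molecule JAM-A, did not pass (0.38, SE 0.16, adjusted p = 0.0816) and had the opposite sign scaled by total counts only (-0.20). It passed without High Male1 (0.47, 0.0495), with RLE size factors (0.44, 0.0357), with DESeq2 (0.44, 0.0105) and with a minimum of 10 counts in every library (0.36, 0.0427).

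The scaffolds beneath the membrane included the other large changes. Of 15, 13 were tested (median 0.09), and 5 rose and 3 fell (38.5% and 23.1%, against 23.4% and 25.3% of all genes). Cgn, or cingulin, which binds ZO-1 and the cytoskeleton, was 13.1 to 21.9 CPM in Low and 114 to 198 CPM in High (log2 difference 3.05, SE 0.23, edgeR adjusted p = 1.42e-05). Tjp3, which encodes ZO-3, went from 17.8 to 26.9 CPM to 92.5 to 167 CPM (2.46, SE 0.21, adjusted p = 2.11e-05). Neither gene had overlapping libraries, and both exceeded Tjp1 in fold.

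Other scaffolds moved in either direction. Magi3, a membrane-associated guanylate kinase, rose by 1.24 (SE 0.16, edgeR adjusted p = 0.0002), with Low libraries within 21.1 to 21.6 CPM and High libraries at 36.7 to 60.6 CPM. Mpdz, the multi-PDZ protein MUPP1 that binds claudin tails, fell from 18.1 to 20.8 CPM to 0.871 to 3.43 CPM (-3.17, SE 0.36, edgeR adjusted p = 8.3e-05), and its relative Patj fell less, from 64.5 ± 6.6 to 40.4 ± 7.6 CPM (SD, n = 4 each; -0.68, SE 0.16, adjusted p = 0.00565). Patj was not called in females only (-0.65, 0.128) or in males only (-0.66, 0.0519). Amotl1, an angiomotin, fell from 108 ± 8 to 46.3 ± 4.1 CPM (SD, n = 4 each; -1.22, SE 0.13, edgeR adjusted p = 6.37e-05). The 2 further scaffolds that rose were Amotl2 and Lin7b.

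Of the 7 genes of the polarity complex, all tested (median 0.02), 2 rose and 1 fell (28.6% and 14.3%, against 23.4% and 25.3% of all genes). Pard3, the core protein of the PAR complex, went from 175 ± 19 to 481 ± 112 CPM (1.45, SE 0.20, edgeR adjusted p = 0.000251) and Pard6b, its partner, from 7.88 ± 0.99 to 20.6 ± 6.1 CPM (1.37, SE 0.22, adjusted p = 0.000628; SD, n = 4 each). Pard3b fell. Of the 7 genes of junction signalling, all tested (median -0.30), 3 rose and 3 fell (42.9% each, against 23.4% and 25.3% of all genes). Shares of lists this short are not read as results about the lists. Wnk4, a kinase that phosphorylates claudins, rose by 1.71 (SE 0.20, edgeR adjusted p = 9.81e-05), Ybx3, the Y-box factor that ZO-1 binds, by 1.06 (SE 0.17, 0.000757), and Arhgef18, an exchange factor of the apical junction, by 0.87 (SE 0.19, 0.00338), although Arhgef18 was not called scaled by total counts only (0.28, 0.127) or in females only (0.90, 0.0644). Epcam, an adhesion protein that stabilises claudin-7, fell from 148 ± 16 to 73.0 ± 12.8 CPM (SD, n = 4 each; -1.02, SE 0.16, edgeR adjusted p = 0.000669), as its partner Cldn7 did. Arhgef2, the exchange factor that cingulin holds, was the least changed of those that fell (-0.48, SE 0.13, edgeR adjusted p = 0.0125), and was not called in females only (-0.38, 0.383), in males only (-0.53, 0.0905), or without both libraries of Female2 (-0.42, 0.0518) or of Male2 (-0.44, 0.0651). The remaining called gene was Rab13, lower. Exons of Crb3, Cxadr, Tjp3, Wnk4 and Arhgef2 overlap another gene, so part of their counts may belong to it.

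The members were also compared by their High minus Low differences in the 4 animals, as the root mean square difference on the log2 scale. This is a description over 4 points that share the 2 sorts of each animal. Among the 36 pairs of members, Cldn1 and Ocln were closest (0.399) and Cldn7 and Cldn23 farthest apart (5.71). The measure keeps the mean change of each gene, so it largely follows the size of the change. The farthest pair thus restates the smallest and largest fitted log2 differences of the tested members (-1.60 and 3.97). The genes nearest to Cldn23, of 10007 compared, were Slc10a6 (0.106), Sptlc3 (0.112) and Rbp2 (0.151). Those nearest to Cldn7, of 10008, were Ruvbl1 (0.0565), Trip10 (0.0967) and Trip6 (0.106). The Cldn7 differences rest on 4 to 36 counts in a library, and a prior count of 2 in the log2 CPM makes them smaller. The genes compared had a mean of at least 5 CPM and are less affected, so closeness to Cldn7 is not read further.

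**Figure D4:**
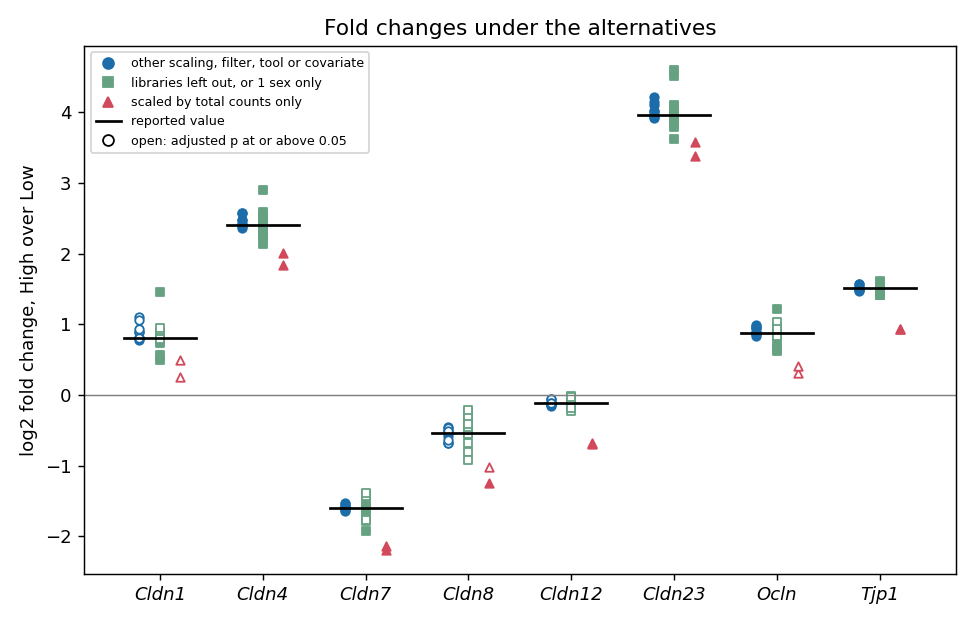
For each tested member, the black bar is the reported log2 difference and the symbols are its value under other scalings, filters, tools and covariates or with libraries left out, filled where the adjusted p was under 0.05. Cldn4, Cldn23 and Tjp1 keep filled symbols above 0 throughout, whereas those of Cldn1, Cldn7, Cldn8, Cldn12 and Ocln are partly filled.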

How the data were processed

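RNA-seq of 8 libraries (4 Cyto-ID Low, 4 Cyto-ID High) was analysed from 1 table of raw counts per gene symbol deposited by the authors; that these are counts follows from whole values with unequal totals. STAR 2.7.3, DESeq2 and GRCm38 are named in the submitters' processing notes. The counting tool, strand setting and filters are not given in the sources used here. No column of the table was left unmapped.

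Counts were fitted with edgeR 4.0.16 in R 4.3.3 (TMM scaling, filterByExpr, quasi-likelihood test, sex as covariate, all 8 libraries, Benjamini-Hochberg over 17344 genes). Alternatives used other scalings, filters and covariates, DESeq2 1.42.0, limma 3.58.1, the animal as a replicate block, and fewer libraries. On simulated counts 69.5% of 200 genes changed by 1.5 on the log2 scale were recovered, with 8 others called. Only these genes were changed, as many up as down, and the libraries were simulated as independent. In the data 48.7% of genes were called and the scaling differed between fractions, which the simulation does not cover. Exon lengths and coordinates came from GENCODE M21 (GRCm38), promoters from RefSeq (GRCm38.p6). Matching used symbols, of which 53388 of 55276 were found in GENCODE.

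The Low and High library of an animal came from the same cell suspension, which pairs them. Their deviations from the group means correlated by 0.43 (Female1), 0.32 (Female2), -0.02 (Male1) and 0.28 (Male2). Between different animals the correlations ran from -0.37 to 0.35. The highest of these, High Male1 with Low Female1, was above the values within Female2, Male1 and Male2. The members and lists were chosen with earlier results of these data known, and some genes of the lists are not reported here. Named were all 9 members, in each of 5 lists of other junction genes the 3 largest called changes per direction with a mean of at least 5 CPM, Cldn5, Cldn17, Cldn18, Tjp3, Cgn, F11r and Marveld2, and 3 genes nearest to the members of largest and smallest log2 difference. Other cell types were followed with further marker lists, besides those in the results. All 4 simple epithelium markers were tested (1 called, higher), 6 of 8 leukocyte markers (1 called, higher) and all 8 muscle markers (1 called, lower). Of 4 Schwann cell markers 3 were tested and 0 called. Of 6 thyroid or airway markers, with Sftpb at 0, only 1 was tested, and it was called higher.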

Additional observations from a re-analysis of the deposited data

Results flagged for a closer look

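In 82 groups of 4 libraries, 5 had a library whose gap to its nearest neighbour exceeded the critical value of Dixon's test, where chance gives about 1 in 20 groups. High Male2 stood above the other High libraries in Marveld3 (4.63 CPM against 2.31 to 2.701). Female2 stood above the others in Cldn18, with 0.357 CPM in Low (others up to 0.0311) and 1.57 CPM in High (others up to 0.0386). It did so too in the summed gastric epithelium markers, with 19.1 CPM in Low (others 0.392 to 0.772) and 116 CPM in High (others 0.801 to 1.44). No value of the 9 members was set apart by this measure.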

How the results depend on the processing

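Of the 8 tested members, Cldn4 (log2 difference 1.84 to 2.90), Cldn23 (3.39 to 4.601) and Tjp1 (0.93 to 1.61) kept direction and call in each of the 23 alternatives. So did 15 of the 29 fitted genes followed (those of the naming rule and Cldn10), these 3 included; Cldn2, Cldn34c1, Ildr1, Amotl2, Lin7b, Pard3b and Rab13 were not followed singly. With the animal as a replicate block, 9336 genes, 5 members and 26 other junction genes were called, against 8440, 5 and 24; of those 29, only Cldn10 changed its call. With both sexes apart, which leaves 2 animals, 4420 genes were called in females and 4739 in males, with 3 members and 14 other junction genes in females and 5 and 21 in males. Leaving out 1 library gave 7269 (without Low Male1) to 8106 genes, 4 to 6 members and 23 to 25 other junction genes. Cldn7 was not called in females (-1.39, adjusted p = 0.211) or males (-1.78, 0.108), Cldn1 was called in males (0.74, 0.0439) and with no filter (0.77, 0.00061), and Cldn8 with no filter (-0.58, 0.0177) and with the block and total counts only (-1.25, 0.0275). Without Low Male2, Cldn23 was 4.601 and Cldn17 4.38 (range 3.17 to 4.38). Signs turned for Cldn5 in females (0.052), without both Male2 libraries (0.17) and without High Female2 (0.01) or High Male2; over the fits with 1 library left out it ranged from -0.94 to 0.14. Scaled by total counts only, without and with the replicate block, they turned for F11r (-0.20, -0.19), Marveld2 (-0.34, -0.25) and Cldn10 (-0.11, -0.069). The cause was not tested, beyond the smaller number of samples in the fits by sex. Not divided by length, the share of Cldn4 was 69.5% in Low and 84.96% in High. A minimum of 10 counts in every library left out Cldn7. The block with total counts only, the covariate for the label number and the fit without both Male2 libraries were chosen after seeing the data. Depth limits Cldn3 and Cldn7, with at most 13 and 36 counts in a library.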
